A study of Mus musculus with 18 samples.

Results

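The 9 genes described here, Cdk9, Ccnt1, Ccnt2, Hexim1, Larp7, Ell, Ell2, Aff1 and Aff4, encode P-TEFb, its inhibitors and the scaffolds and ELL proteins that work with it. They were chosen by gene symbol from the 19919 genes listed in the 3 FPKM tables of the series, and every member had a value in all 18 libraries. The libraries came from bone marrow progenitors of C57BL/6 mice aged 6 to 8 weeks: multipotent progenitors (MPPs), sorted as lineage-negative cells with Sca-1, CD117, FLT3 and CD34, CD115- common dendritic cell progenitors (CDPs), sorted as FLT3+ cells with intermediate CD117 and without lineage markers, CD11c, CD127 or CD115, and common lymphoid progenitors (CLPs), sorted as FLT3+ CD127+ cells with CD117 and Sca-1 and without lineage markers or CD11c. Each population was sampled 3 times from mice labelled wild type (WT, Trim33fl/fl) and 3 times from mice labelled Trim33-/- (KO-labelled below). Trim33 encodes TRIM33, a chromatin-reading RING finger protein that the study links to CDK9, and the comparison addresses whether transcripts of the elongation machinery differ when TRIM33 is removed. In the study, knockout mice also carried Cre-ERT2, which deleted Trim33 systemically after tamoxifen. It was given as 5 daily doses of 2 mg, and the cells were taken 7 days later. The deleted part was taken to be exons 2 to 4, which the study's methods do not name. The WT mice received tamoxifen too but did not carry Cre-ERT2, so loss of Trim33 and presence of the active recombinase cannot be told apart. All libraries held poly-A RNA read as single 50-base reads, and FPKM scales the reads of a gene to its transcript length and to the mapped reads of its library.

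RNA polymerase II pauses soon after it starts a gene, and P-TEFb releases it. The kinase CDK9, bound to cyclin T1 (Ccnt1) or cyclin T2 (Ccnt2), phosphorylates the pausing factors NELF and DSIF and serine 2 of the polymerase tail. Much of the cell's P-TEFb is held inactive on the 7SK small nuclear RNA, where HEXIM1 inhibits the kinase and LARP7 binds and stabilizes the RNA. Active P-TEFb joins the super elongation complex, in which AFF1 or AFF4 is the scaffold and ELL or ELL2 raises the rate of elongation. In blood progenitors these factors are best known because AFF1, AFF4 and ELL are fusion partners of MLL in leukemia.

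Trim33 itself was read first, as the check of the labels. Its FPKM in WT and KO-labelled libraries overlapped in every population: 8.78 to 10.4 against 4.80 to 11.7 in MPPs, 8.27 to 15.2 against 4.03 to 9.64 in CDPs, and 7.01 to 12.4 against 5.60 to 7.66 in CLPs. The log2 differences were -0.22, -0.74 and -0.37, with limma adjusted p of 0.630, 0.528 and 0.255. In CDPs it passed once the replicate number was a term (adjusted p = 0.0258). A level of the whole gene also counts reads from the exons outside the deleted part, so these values check the deletion only in part. From the steps between low values, each library held an estimated 19.2 to 21.1 mega-reads (units of 1000000 mapped reads). Transcripts of the sort markers were present, but some separated the genotypes. Kit was 71.6 to 74.8 FPKM in WT and 29.9 to 49.9 in KO-labelled MPPs. Il7r overlapped between the genotypes in CLPs, at 32.6 to 63.0 in WT and 37.6 to 43.05 in KO-labelled libraries. Csf1r, which encodes CD115, was 39.1 to 137 FPKM in WT and 9.24 to 37.2 in KO-labelled CDPs, although both had been gated as CD115-. Itgax, which encodes the CD11c gated out of CDPs and CLPs, was 54.8 to 69.7 in WT and 5.36 to 7.47 in KO-labelled CLPs. In CDPs it was 15.7 to 23.3 in WT and 4.27 to 5.37 in KO-labelled libraries. The part of these markers in the members' differences was not tested.

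In the RefSeq annotation of GRCm38.p6 the members lie on 8 chromosomes. Cdk9 is at chr2:32705782-32712784 on the minus strand, Ccnt1 at chr15:98538690-98567736 (minus), Ccnt2 at chr1:127774164-127804837 (plus), Hexim1 at chr11:103116325-103119725 (plus) and Larp7 at chr3:127536714-127553349 (minus). Ell is at chr8:70539675-70592858, Ell2 at chr13:75707484-75772361, Aff1 at chr5:103692362-103855322 and Aff4 at chr11:53350640-53421830, all on the plus strand. Of the 2072 different 50-base stretches in the Larp7 transcripts, 18.1% also occur in Gm12666, so its level is uncertain to that extent. For Ell2 the share was 1.71%. Exons of Ccnt1 overlap 9330020H09Rik on the opposite strand over 695 bases, and the strand setting of the counting is not given in the sources used here, so reads from that stretch cannot be assigned to either gene. That antisense gene was at 1.84 to 5.17 FPKM over the 18 libraries, and in CDPs it too was lowest in number 3, at 4.35, 5.16 and 2.28 in WT and 3.91, 5.17 and 2.23 in KO-labelled libraries.

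The 250 bases before the annotated start are shown for 4 members that the results turn on. Cdk9 varied least between libraries, Larp7 ranged over 2.01-fold and was called between WT populations, and Hexim1 and Ccnt1 varied together. All 9 members had an entry in the RefSeq promoter table. The windows lie at chr2:32712785-32713034 (minus strand), chr3:127553350-127553599 (minus), chr11:103116075-103116324 (plus) and chr15:98567737-98567986 (minus). Capitals mark a GC box, a CCAAT box, a CRE, an AP-1 site or an E-box, each read on either strand and spelled out after the sequences, and none of these motifs contains another.
Cdk9: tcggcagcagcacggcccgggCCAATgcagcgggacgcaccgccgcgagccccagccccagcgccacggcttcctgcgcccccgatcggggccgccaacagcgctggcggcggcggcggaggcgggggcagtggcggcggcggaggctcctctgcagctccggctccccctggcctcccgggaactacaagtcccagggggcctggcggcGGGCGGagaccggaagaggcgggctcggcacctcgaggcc
Larp7: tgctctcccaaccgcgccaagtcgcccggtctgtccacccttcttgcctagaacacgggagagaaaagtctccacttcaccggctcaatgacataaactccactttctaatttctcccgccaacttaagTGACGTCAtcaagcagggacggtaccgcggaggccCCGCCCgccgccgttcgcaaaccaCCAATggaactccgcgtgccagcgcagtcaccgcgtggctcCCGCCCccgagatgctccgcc
Hexim1: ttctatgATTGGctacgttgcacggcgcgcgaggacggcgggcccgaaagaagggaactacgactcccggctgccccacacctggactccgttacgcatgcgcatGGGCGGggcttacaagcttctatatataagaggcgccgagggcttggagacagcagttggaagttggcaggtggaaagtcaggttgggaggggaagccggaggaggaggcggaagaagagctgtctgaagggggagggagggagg
Ccnt1: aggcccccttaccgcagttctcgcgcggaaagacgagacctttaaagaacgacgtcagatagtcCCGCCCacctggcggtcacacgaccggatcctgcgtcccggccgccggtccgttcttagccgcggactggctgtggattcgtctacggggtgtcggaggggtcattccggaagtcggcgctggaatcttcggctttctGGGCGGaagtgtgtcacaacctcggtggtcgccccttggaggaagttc
A GC box, spelled GGGCGG, stood in the window of 8 of 9 members and in 32.9% of the 27025 promoters of the table, and a CCAAT box, whose letters are its name, in 5 of 9 and 34.5%. The CRE, the cyclic AMP response element TGACGTCA, was found in Larp7 and Ell2 and in 1.62% of all promoters. Aff4 was the 1 member with the E-box CACGTG, found in 6.05% of all promoters. No window of a member held the AP-1 site TGANTCA or the exact letters TATAAA of the TATA box, which were in 6.87% and 13.0% of all promoters. Other spellings, such as the tatataag in the Hexim1 window, were not searched for. The letters alone are a description of these windows: GC boxes were in the window of Cdk9 as in those of Hexim1 and Ccnt1.

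Cdk9, the catalytic subunit, was the steadiest member. Its highest library was 1.54 times its lowest, 65.1 against 42.2 FPKM. In MPPs it was 42.2, 43.8 and 48.8 FPKM in WT and 47.7, 49.3 and 46.3 in KO-labelled libraries. In CDPs it was 55.7, 65.1 and 51.9 against 59.2, 63.1 and 51.8, and in CLPs 51.5, 53.0 and 48.5 against 52.4, 48.2 and 49.6. The genotypes overlapped in each population. On the log2(FPKM + 1) scale the KO-labelled to WT fold was 1.06 in MPPs (95% interval 0.915 to 1.24), 1.01 in CDPs (0.789 to 1.29) and 0.983 in CLPs (0.852 to 1.13), with limma adjusted p of 0.539, 0.990 and 0.882. The widest of the intervals was that of CDPs, in which number 3 was the lowest library of both genotypes.

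The cyclins differed from each other. Ccnt2 stayed between 8.80 and 19.2 FPKM, with group means ± SD (n = 3) of 11.1 ± 0.607 and 10.8 ± 2.21 in WT and KO-labelled MPPs, 13.7 ± 1.90 and 10.2 ± 1.18 in CDPs, and 14.7 ± 3.91 and 14.1 ± 2.09 in CLPs. Ccnt1 ranged over 4.43-fold. Its FPKM was 18.5, 22.2 and 11.04 in WT MPPs and 38.7, 42.9 and 12.5 in KO-labelled MPPs. In CDPs it was 31.9, 38.0 and 9.69 against 35.4, 29.0 and 11.2. The library numbered 3 was the lowest of each of these 4 groups. In CLPs, at 17.9, 11.03 and 12.9 against 18.3, 12.8 and 20.1 FPKM, it was not.

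The 7SK partners split in the same way. Larp7 was 41.1, 42.7 and 44.5 FPKM in WT MPPs and 59.9, 57.0 and 42.7 in KO-labelled MPPs. In CDPs it was 50.7, 52.5 and 44.4 against 50.1, 53.8 and 49.5, so the CDP genotypes overlapped. Hexim1 was 27.9, 30.7 and 23.1 FPKM in WT MPPs and 49.5, 45.2 and 21.1 in KO-labelled MPPs. In CDPs it was 71.3, 59.6 and 25.7 against 55.5, 55.1 and 23.4. In CLPs the libraries lay close together, at 33.2, 36.7 and 35.6 FPKM in WT and 26.1, 25.6 and 27.6 in KO-labelled libraries, and the groups did not overlap.

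Of the scaffolds of the super elongation complex, Aff1 was 14.6, 17.8 and 8.89 FPKM in WT MPPs and 27.7, 35.5 and 9.36 in KO-labelled MPPs. Aff4 was 14.3, 17.6 and 9.35 against 28.2, 38.3 and 9.08 there. In CDPs Aff1 was 29.5, 36.0 and 12.1 against 28.8, 21.8 and 10.3. Both scaffolds again had their lowest value in the library numbered 3 of each group. Aff4 in CDPs was 23.4, 34.7 and 9.12 FPKM against 27.2, 21.4 and 7.85. In CLPs Aff1 stayed between 19.1 and 27.2 FPKM and Aff4 between 7.71 and 14.2. The ELL proteins came at different levels: Ell was 10.99 to 23.6 FPKM over all libraries, and Ell2, a gene known from the secretory program of plasma cells, was 0.64 to 10.1.

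**Figure D1:**
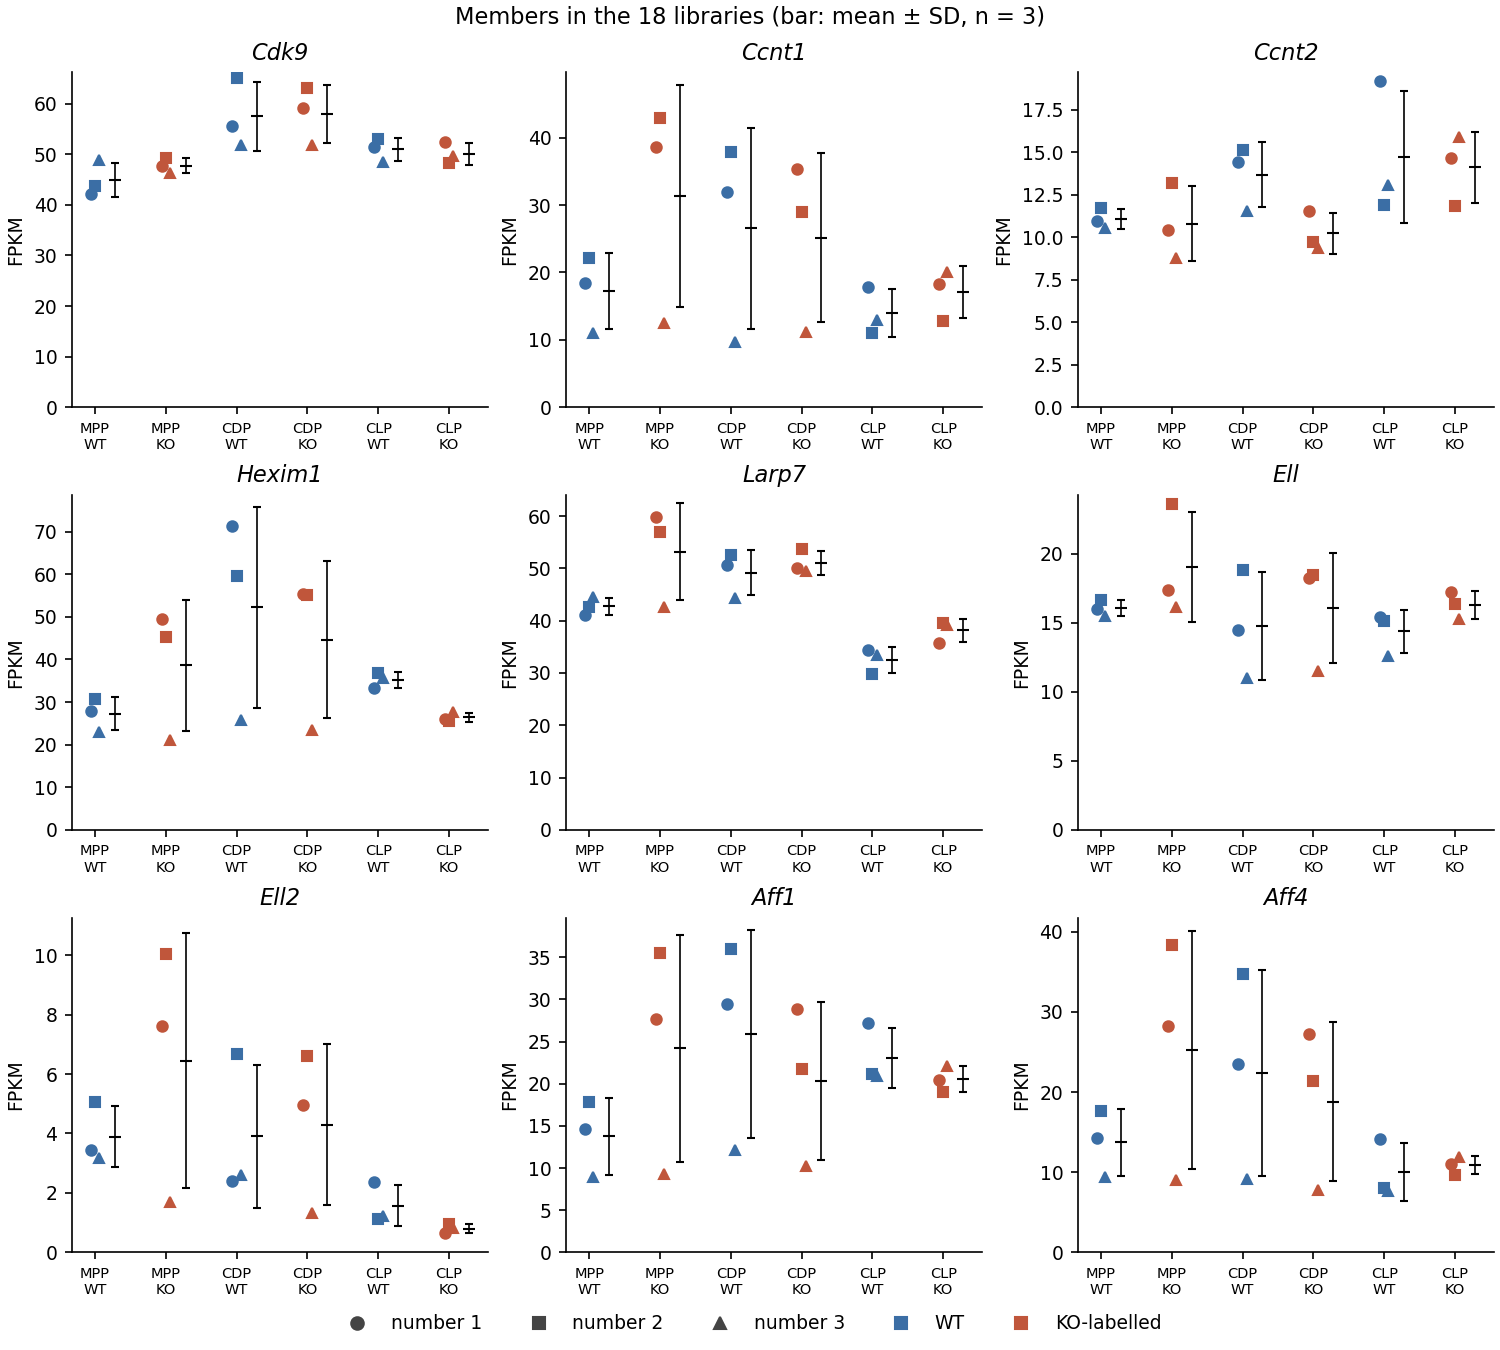
FPKM of each member in the 18 libraries, with 1 point per library, its shape giving the replicate number and its colour the genotype label, and a bar for the mean ± SD of the 3 libraries of a group. Cdk9 stays between 42.2 and 65.1 FPKM, while in MPPs and CDPs the triangles for number 3 lie lowest in Ccnt1, Hexim1, Aff1 and Aff4.

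Between the genotypes, Hexim1 in CLPs was the 1 member that passed an adjusted p of 0.05 in any population. Its fitted fold was 0.759 (95% interval 0.655 to 0.878), with a log2 difference of -0.40 ± 0.09 (SE) and a limma adjusted p of 0.0233, and each KO-labelled library was below each WT library. The study's own minimum of 1 on the log2 scale was not reached. Background for CLPs was high: 14.3% of the 12339 genes tested passed, and 33.9% had groups that did not overlap, against 3 of 9 members (Hexim1 and Ell2 lower, Larp7 higher). The Hexim1 call was kept without WT number 1 (adjusted p = 0.0168) and was lost on leaving out any other library, with adjusted p from 0.0578 to 0.106 and a log2 difference of -0.37 to -0.44 over all 6 omissions. Without both libraries numbered 3, a choice made after seeing the data, it was -0.42 (0.152).

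Ell2 in CLPs was 2.36, 1.13 and 1.24 FPKM in WT and 0.64, 0.95 and 0.82 in KO-labelled libraries. The groups did not overlap, and its log2 difference of -0.49 ± 0.19 had an adjusted p of 0.126. For Larp7 there, at 34.4, 29.7 and 33.4 against 35.7, 39.6 and 39.2 FPKM, the difference was 0.23 ± 0.10 with an adjusted p of 0.174. The ratio of Hexim1 to Larp7 within a library was 0.965, 1.24 and 1.07 in WT CLPs and 0.732, 0.647 and 0.704 in the KO-labelled ones. That separation follows from the values of both genes just given and adds nothing to them. The ratio overlapped between WT and KO-labelled MPPs, at 0.519 to 0.719 and 0.493 to 0.827, and CDPs, at 0.580 to 1.41 and 0.474 to 1.11. Marker transcripts of other cells also differed between these CLP groups. The summed FPKM of the 10 erythroid markers was 35.7 to 57.7 in WT and 6.06 to 10.2 in KO-labelled CLPs, that of the 5 T cell markers 7.01 to 10.5 against 1.5 to 2.02, and that of the 9 neutrophil markers 424 to 993 against 241 to 414, with Cd3e at 0 in the KO-labelled group. B cell markers, 7 genes, were at 213 to 579 and 187 to 394, with Ms4a1 at 0 in the KO-labelled group, and 10 immediate-early genes, which respond to cell handling, at 4772 to 9299 and 4524 to 8733. Their part in the Hexim1 difference was not tested. In bulk samples, fewer cells of a type and less RNA per cell cannot be told apart.

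In MPPs no member passed, where 3.84% of the 12372 genes tested did. The groups of all 9 members overlapped, and 30.3% of all genes had groups that did not. The log2 differences ran from -0.05 for Ccnt2 to 0.70 ± 0.48 for Ccnt1, and their median was 0.40 against -0.11 over all genes. No member reached an unadjusted p of 0.05, and the SE was 0.51 for Aff4, 0.49 for Aff1 and 0.51 for Ell2. The KO-labelled library numbered 3 stood apart from numbers 1 and 2. For Ccnt1, Hexim1, Larp7, Ell2, Aff1 and Aff4, numbers 1 and 2 of the KO-labelled MPPs were above each WT library, and number 3 was below at least 1 of them.

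Leaving out both libraries numbered 3, a choice made after seeing the data, 6 of 9 members passed in MPPs, and so did 49.6% of all genes. All 6 were higher in the KO-labelled libraries: Aff4 by 1.01 (adjusted p = 0.0101), Ccnt1 by 0.97 (0.00473), Aff1 by 0.92 (0.00936), Ell2 by 0.91 (0.0191), Hexim1 by 0.67 (0.00517) and Larp7 by 0.47 (0.00590). Cdk9 differed by 0.17 (0.0746), Ell by 0.29 (0.164) and Ccnt2 by 0.04 (0.785). Trim33 itself differed by only 0.05 in that fit (adjusted p = 0.737). In numbers 1, 2 and 3 it was 10.4, 10.1 and 8.78 FPKM in WT and 9.71, 11.7 and 4.80 in KO-labelled MPPs. The KO-labelled libraries kept in that fit thus showed no clear loss of Trim33 at the level of the whole gene. Without the KO-labelled number 3 alone, 6 of 9 members and 54.3% of all genes passed. Against that background, the count of members called is not a result about the members. Erythroid marker sums in MPPs were 380 to 405 FPKM in WT and 33.1 to 60.1 in KO-labelled libraries, immediate-early sums 11393 to 12548 against 4875 to 5521, neutrophil sums 3481 to 3606 against 1565 to 2584, B cell sums 41.7 to 48.2 against 15.1 to 29.6 and T cell sums 4.88 to 5.37 against 1.38 to 1.96. All of these separated the genotypes, Ms4a1 was at 0 in WT, and their part in the members' differences was not tested.

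In CDPs no member passed: 0.106% of 12229 were called, and 18.2% had groups that did not overlap against 0 of 9 members. Ccnt2 had the largest difference, -0.38 ± 0.18 with an adjusted p of 0.515, from 14.4, 15.1 and 11.5 FPKM in WT to 11.6, 9.74 and 9.35 in KO-labelled libraries. The remaining 8 lay between -0.32 for Aff1 and 0.12 for Ell. With the replicate number as a term, which raised the share of all genes called to 9.34%, the members called were still 0 of 9, and the lowest adjusted p was 0.0878 for Ccnt2. Without both libraries numbered 3, again 0 of 9 members were called beside 2.67% of all genes.

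**Figure D2:**
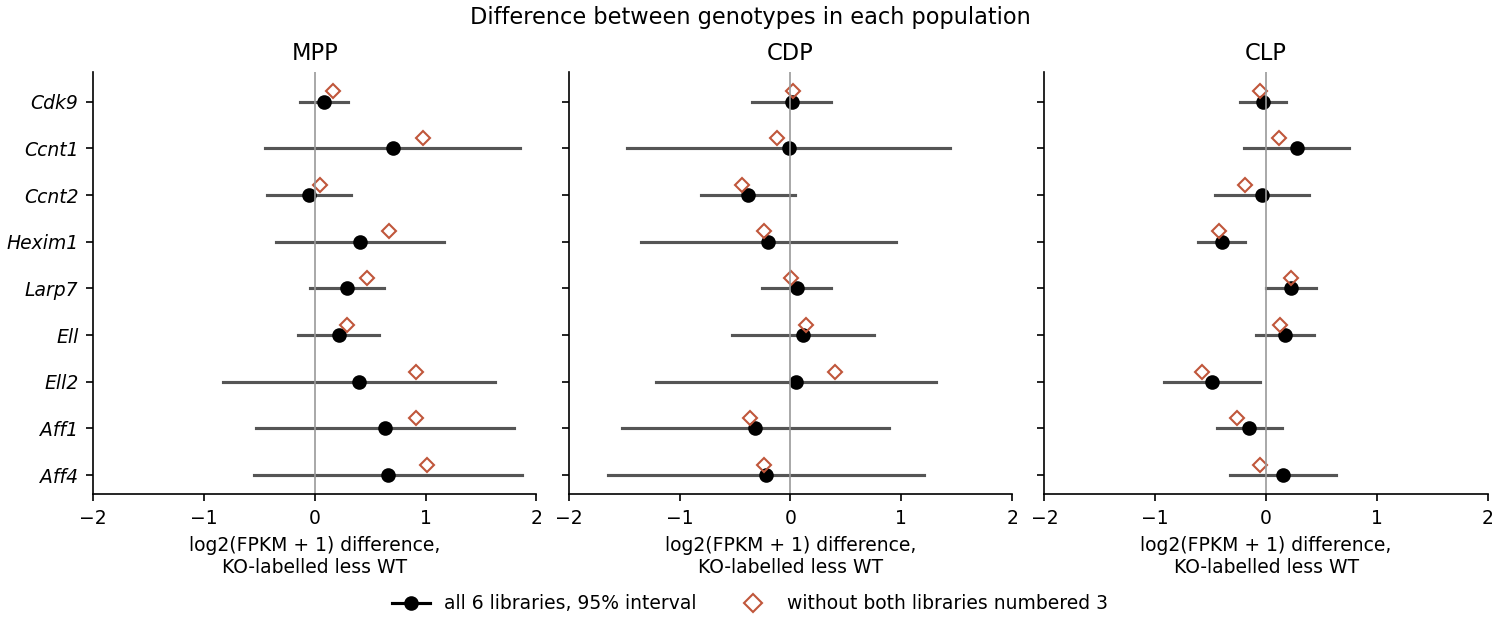
Difference between KO-labelled and WT libraries for each member, on the log2(FPKM + 1) scale, with filled circles and 95% intervals from all 6 libraries of a population and open diamonds for the fit without both libraries numbered 3. The interval of Hexim1 in CLPs, -0.61 to -0.19, lies wholly below 0, and in MPPs the diamonds lie to the right of the circles for all 9 members.

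The difference between genotypes was also compared across the populations, with an F test of the interaction over the 18 libraries. No member passed, where 2.45% of 12421 genes did. For Hexim1, the genotype difference less that in MPPs was -0.81 ± 0.53 (SE) in CLPs and -0.61 ± 0.53 in CDPs (adjusted p = 0.615). For Aff1 it was -0.78 ± 0.66 and -0.95 ± 0.66 (adjusted p = 0.625). The Hexim1 difference in CLPs was thus not shown to differ from those in MPPs and CDPs.

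Over all genes, the libraries numbered 3 stood apart in CDPs and in KO-labelled MPPs, and not in WT MPPs or CLPs. The share of genes at least 1 log2 unit below the mean of numbers 1 and 2 was 0.533% in WT MPPs. It was 0.656% in WT and 0.438% in KO-labelled CLPs. In CDPs, 4 of 9 members (Ccnt1, Hexim1, Aff1 and Aff4) were at least 1 log2 unit below the mean of numbers 1 and 2 in both genotypes, as were 4.78% of all genes tested, a limit set after seeing the values. Number 3 less that mean was -1.75 for Ccnt1 in WT and -1.43 in KO-labelled CDPs, -1.55 and -1.51 for Aff4, -1.35 and -1.21 for Aff1, and -1.31 and -1.203 for Hexim1. Ell2 was at -0.50 and -1.54, Ell at -0.55 and -0.63, Ccnt2 at -0.33 and -0.17, Cdk9 at -0.21 and -0.23 and Larp7 at -0.21 and -0.07. The medians over all genes were 0.12 and 0.20.

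Among KO-labelled MPPs the same 4 members and Ell2 were at least 1 unit lower in number 3, 5 of 9 against 5.14% of all genes. Ell2 was at -1.86 there, Aff4 at -1.75, Aff1 at -1.64, Ccnt1 at -1.63 and Hexim1 at -1.13. In WT MPPs no member reached that limit, which 0.533% of all genes did. The largest drops there were -0.82 for Ccnt1, -0.79 for Aff1 and -0.70 for Aff4. Each of these was below the 5th percentile of all genes in that group, -0.38. In CLPs the 9 members lay between -0.43 and 0.37.

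Other measures moved with those libraries. In CDPs the summed FPKM of the 9 neutrophil markers was 695, 756 and 4510 in WT and 1063, 796 and 4443 in KO-labelled libraries, and all 9 were highest in number 3 in both genotypes. KO-labelled MPPs did not share this: the sums were 2584, 1565 and 1649, and none of the 9 markers was highest in number 3. Erythroid sums in CDPs were 7.05, 12.3 and 37.8 in WT and 7.17, 11.7 and 23.9 in KO-labelled libraries, with Hba-a2 at 0 in the latter group. T cell sums were also highest in number 3, at 4.08, 3.02 and 13.5 in WT and 1.52, 0.97 and 1.70 in KO-labelled CDPs. B cell sums were lowest there, at 60.4, 105 and 45.3 against 166, 115 and 35.0, and immediate-early sums were 6947, 4495 and 5670 against 5712, 5619 and 4214. Transcript length moved with number 3 as well, though not only in these populations. For genes with transcripts over 6000 bases the median difference was -0.10 in WT and 0.05 in KO-labelled CDPs. In MPPs it was -0.21 and 0.04. For transcripts of up to 1000 bases the medians were higher, 0.33 and 0.30 in CDPs and 0.20 and 0.18 in MPPs. WT CLPs, where number 3 did not stand apart, had the same order, -0.22 for the longest and 0.19 for the shortest transcripts. KO-labelled CLPs did not, at 0.03 and -0.04. Among the 4 members low in number 3 of the CDPs, the transcripts of Aff4 and Aff1 were the longest of all members, at 10099 and 8318 bases, and those of Hexim1 and Ccnt1 had 3495 and 2175 bases. Ccnt2, with 6738 bases, was at -0.33 and -0.17, and Cdk9 and Larp7, with 1733 and 2121 bases, were the shortest. The part of these measures in the members' pattern was not tested.

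**Figure D3:**
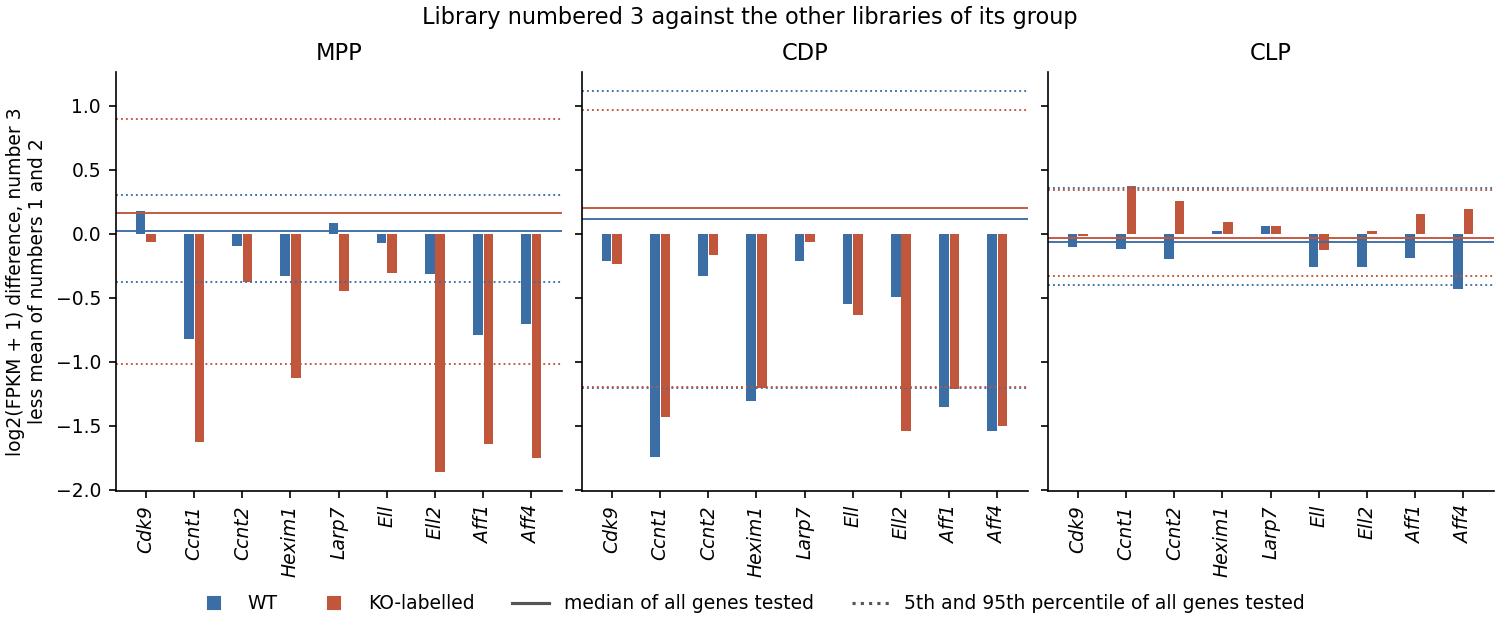
Difference of the library numbered 3 from the mean of numbers 1 and 2 in each group, on the log2(FPKM + 1) scale, with bars for the members by genotype label, solid lines for the median of all genes tested and dotted lines for their 5th and 95th percentiles. In CDPs the bars of Ccnt1, Hexim1, Aff1 and Aff4 reach below the 5th percentile of -1.203 and -1.195 in both genotypes. In MPPs those of Ccnt1, Aff1 and Aff4 reach below the 5th percentile of -0.38 in WT and -1.02 in KO-labelled libraries. In CLPs 8 of 9 members stay above the lower dotted lines.

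Between populations, WT libraries were compared to see which members differ along the routes from MPPs to dendritic and lymphoid progenitors. The CLP table lists 18378 genes and those of MPPs and CDPs list 19710 each, and the fit started from the 18169 they share. The tables may have been made separately, and levels across them would then also carry that difference. Larp7 was lower in CLPs, at 29.7 to 34.4 FPKM, than in MPPs, at 41.1 to 44.5, and CDPs, at 44.4 to 52.5, and these groups did not overlap. The log2 differences were -0.39 ± 0.10 for CLPs less MPPs (limma adjusted p = 0.0264) and 0.58 ± 0.10 for CDPs less CLPs (0.0121). Larp7 was the only member called in those contrasts, 1 of 9 against 25% and 10.9% of all genes, and 0 of 9 were called for CDPs less MPPs against 21.9%. The first Larp7 call was lost with TPM (adjusted p = 0.148), with median ratio scaling (0.0608) and on leaving out any of the 3 MPP libraries or CLP number 2 or 3 (0.0578 to 0.103), and the second on leaving out CLP number 2 (0.0564). In KO-labelled libraries Larp7 was 35.7 to 39.6 FPKM in CLPs and 42.7 to 59.9 in MPPs, again without overlap, with -0.46 ± 0.14 (adjusted p = 0.0745), and 0.41 ± 0.14 for CDPs less CLPs (0.0778).

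Cdk9 was higher in each WT CDP library, 51.9 to 65.1 FPKM, than in any WT MPP library, 42.2 to 48.8, with a difference of 0.35 ± 0.11 that just missed the threshold (adjusted p = 0.0558). It was again higher without overlap in KO-labelled CDPs, 51.8 to 63.1 against 46.3 to 49.3, at 0.27 ± 0.11 (adjusted p = 0.311). Ell2 was lowest in CLPs of both genotypes, and no CLP library reached the lowest MPP or CDP library of its genotype. Its differences were -0.94 ± 0.33 for CLPs less MPPs in WT (adjusted p = 0.0666) and -1.82 ± 0.56 in KO-labelled libraries (0.0772). The order of the WT means for Hexim1 was CDP, CLP and MPP (52.2, 35.2 and 27.2 FPKM), and for Ccnt1 CDP, MPP and CLP (26.5, 17.2 and 13.95), and no neighbours in these orders passed the test, although each WT CLP library was above each WT MPP library for Hexim1. In the KO-labelled libraries 0 of 9 members passed in any contrast, against 1.44% of all genes for CDPs less MPPs, 8.97% for CLPs less MPPs and 11.5% for CDPs less CLPs.

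The counts of members called moved most with 1 library. Without the WT CDP library numbered 3, 6 of 9 members passed for CDPs less MPPs (Cdk9, Ccnt1, Hexim1, Larp7, Aff1 and Aff4), 5 for CDPs less CLPs (Ccnt1, Hexim1, Larp7, Ell2 and Aff4) and 4 for CLPs less MPPs (Hexim1, Larp7, Ell2 and Aff1). Hexim1 was then 1.24 higher in CDPs than in MPPs on the log2 scale (adjusted p = 0.000127) and Aff1 likewise 1.24 (0.00292). The shares of all genes called were then 51.9%, 41.3% and 41%.

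Ratios within a library do not depend on its total. Ccnt1 to Ccnt2 was 1.68, 1.89 and 1.05 in WT MPPs, 3.70, 3.26 and 1.42 in KO-labelled MPPs, 2.22, 2.51 and 0.841 in WT CDPs and 3.06, 2.97 and 1.201 in KO-labelled CDPs. In CLPs it was 0.927 to 0.986 in WT and 1.08 to 1.26 in KO-labelled libraries, without overlap. Hexim1 to Cdk9, an inhibitor to its target, was 0.645 to 0.733 in WT CLPs and 0.498 to 0.556 in KO-labelled CLPs. In MPPs and CDPs that ratio was 0.662 to 1.28 in numbers 1 and 2 and 0.453 to 0.496 in the 4 libraries numbered 3.

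Not every ratio was lowest in number 3 of every group. Larp7 to Cdk9 was lowest there in MPPs, at 0.974, 0.973 and 0.911 in WT and 1.26, 1.16 and 0.922 in KO-labelled libraries. In CDPs it was not, at 0.911, 0.807 and 0.855 in WT and 0.847, 0.852 and 0.955 in KO-labelled libraries. Aff1 to Aff4 stayed between 0.927 and 1.33 in all 12 MPP and CDP libraries, number 3 included, since both scaffolds were low together. In CLPs it was 1.86 to 2.71, above every MPP and CDP library. Ell2 to Ell was 0.105 to 0.439 in MPPs and CDPs and 0.0371 to 0.153 in CLPs. Of the MPP and CDP groups, all but WT CDPs had their lowest Ell2 to Ell in number 3.

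**Figure D4:**
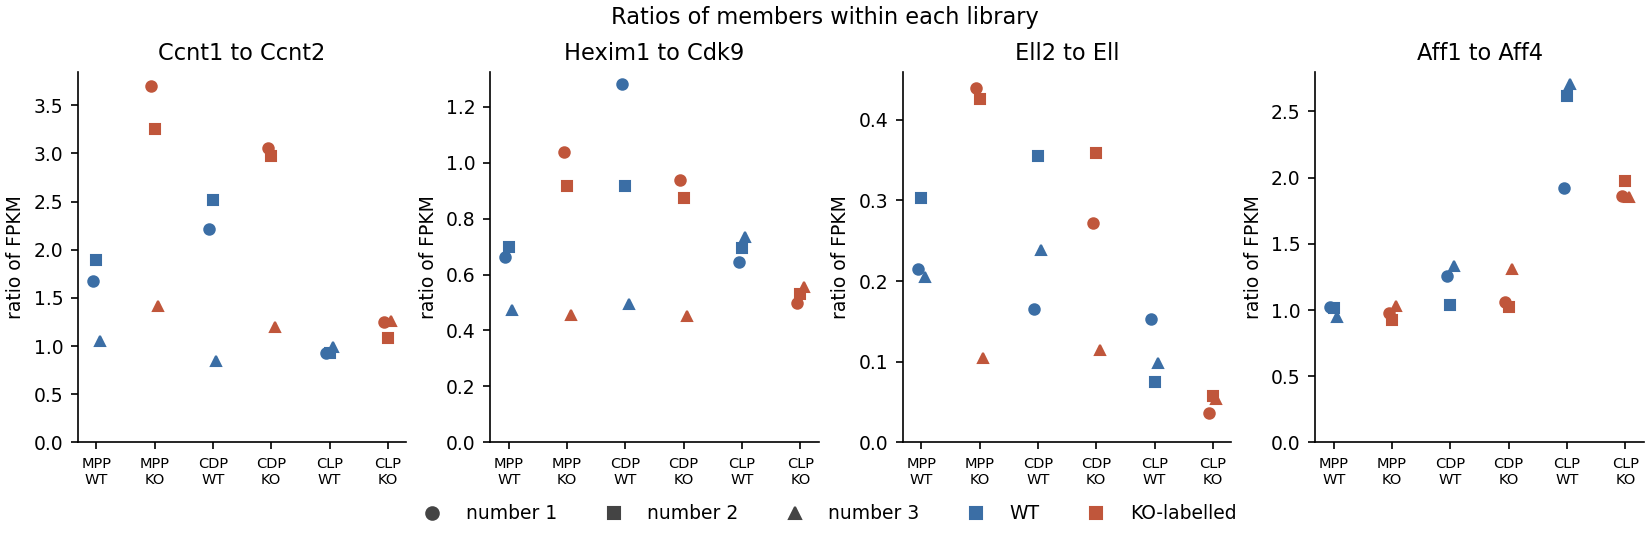
Ratios of FPKM between members within each library, by population and genotype label, with the shape of a point giving the replicate number. Aff1 to Aff4 holds between 0.927 and 1.33 in MPPs and CDPs and is 1.86 to 2.71 in CLPs, while Ccnt1 to Ccnt2 and Hexim1 to Cdk9 are lowest in number 3 of the MPP and CDP groups.

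Members differed in how closely they followed each other. Over the 18 libraries, deviations from the group means on the log2 scale correlated at r = 0.99 between Aff1 and Aff4, 0.98 for each of them with Ccnt1, and 0.92 between Ccnt1 and Hexim1. Cdk9 correlated at 0.53 with its cyclin Ccnt1, 0.35 with Ccnt2 and 0.37 with Larp7. These are descriptions with no test: the points share libraries, and the libraries numbered 3 carry much of the deviation. Over the levels themselves, among 11667 genes averaging 0.5 FPKM or more in each population, those most like Hexim1 were Oser1 (r = 0.96), Errfi1 (0.96), an inhibitor of EGF receptor signalling, and Spty2d1 (0.96), a histone chaperone. Those most like Cdk9 were 1810026J23Rik (0.88), Cdk5r1 (0.86), an activator of CDK5, and Cd5 (0.86).

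Of 53 other genes of the elongation machinery, none was called between the genotypes in MPPs or CDPs and 4 of the 51 tested were called in CLPs, all higher in the KO-labelled libraries. As 14.3% of all genes passed in CLPs, this count is no result about the list, and the 4 are given as single genes. The median difference of the 51 in CLPs was 0.05, against 0.01 over all genes. Ctr9, a subunit of the PAF1 complex, had the largest, from 67.6, 45.7 and 49.4 FPKM in WT to 171, 121 and 92.7 in KO-labelled CLPs. Its log2 difference was 1.204 ± 0.23 (adjusted p = 0.00981), and it stayed called on leaving out any 1 library. Ddx21, a helicase tied to release of P-TEFb from 7SK, was 73.3, 50.2 and 60.8 against 104, 84.3 and 90.4 FPKM, with 0.60 ± 0.15 (0.0303). Rprd1a, which binds the polymerase tail, was 3.48 to 4.83 against 5.89 to 6.06 FPKM, with 0.49 ± 0.13 (0.0428). The calls of Ddx21 and Rprd1a were kept without WT number 1 (0.00904 and 0.00915) and lost on leaving out any other library.

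Ell3, the third ELL family gene, was 0.74 to 1.14 FPKM in WT and 1.81 to 2.89 in KO-labelled CLPs, a difference of 0.80 ± 0.16 (adjusted p = 0.0117). Its value is uncertain, since 82.7% of its 50-base stretches are shared with Serinc4, which overlaps it on the same strand. With the replicate number as a term, 9 of the 51 passed in CLPs, 8 of them higher, beside 20.9% of all genes, and 3 passed in CDPs, all higher in the KO-labelled libraries: Ctr9 (0.88, adjusted p = 0.0196), Wdr61 (0.47, 0.04996), also of the PAF1 complex, and Gtf2f2 (0.43, 0.0479), a subunit of TFIIF. Wdr61 and Gtf2f2 were named here after their values were seen. Without both libraries numbered 3 the count in CLPs was 1, Ctr9, beside 4.95% of all genes. In MPPs Ctr9 was 39.2 to 41.4 FPKM in WT and 27.7, 25.9 and 90.1 in the KO-labelled libraries, so the KO-labelled number 3 was high where it was low for Aff4 and Ccnt1.

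The close partners named next did not pass between genotypes. Mepce, which caps 7SK, was 32.3 ± 0.975 in WT and 28.8 ± 1.197 in KO-labelled CLPs, without overlap and with a difference of -0.16 ± 0.09 (adjusted p = 0.278). Hexim2, the paralog of Hexim1, stayed between 0.91 and 1.65 FPKM in all 18 libraries. Cdk12 and Cdk13, the other serine 2 kinases, and their cyclin Ccnk had adjusted p of 0.179 or above in every population. Eaf1, which binds ELL proteins, was higher without overlap in KO-labelled MPPs, 15.1 ± 2.24 against 10.9 ± 1.03 FPKM, at an adjusted p of 0.142. Eaf2, Mllt1, Mllt3 and Aff3 had adjusted p of 0.269 or above in each population, and Aff2, at 0 to 0.06 FPKM, was too low to be tested.

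Between WT populations, 9 of the 51 other genes tested passed for CDPs less MPPs, 7 for CLPs less MPPs and 1 for CDPs less CLPs, against 21.9%, 25% and 10.9% of all genes, so the counts are no result about the list. Those with the largest differences for CDPs less MPPs were Tcea2 (-0.78), Ice2 (-0.76), Eaf2 (0.70), Supt4a (0.69), Wdr61 (-0.69) and Eloa (0.56). Supt16, a subunit of the histone chaperone FACT, was highest in CLPs of both genotypes, at 38.2 to 48.4 FPKM in WT CLPs against 28.9 to 29.7 in WT MPPs, and it was called against both other populations in both genotypes. Its exons share 20.8% of their 50-base stretches with Rpgrip1 on the opposite strand. For CLPs less MPPs, Ccnh, the cyclin of the TFIIH kinase, was lower (-0.59, adjusted p = 0.0158) and Supt5, a subunit of DSIF, higher (0.34, 0.0440). Among the close partners, Eaf2 was higher in WT CDPs and CLPs than in MPPs (0.70 and 0.73, adjusted p = 0.0145 and 0.0102), Eaf1 and Ell3 were higher in CLPs (0.69 and 0.63) and Mllt3 lower (-0.70). In the KO-labelled libraries Elob, a subunit of elongin, was higher in CDPs than CLPs (0.66, 0.0170) and lower in CLPs than MPPs (-0.38, 0.0419), and Gtf2f1 was higher in CDPs than CLPs (0.41, 0.0407).

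**Figure D5:**
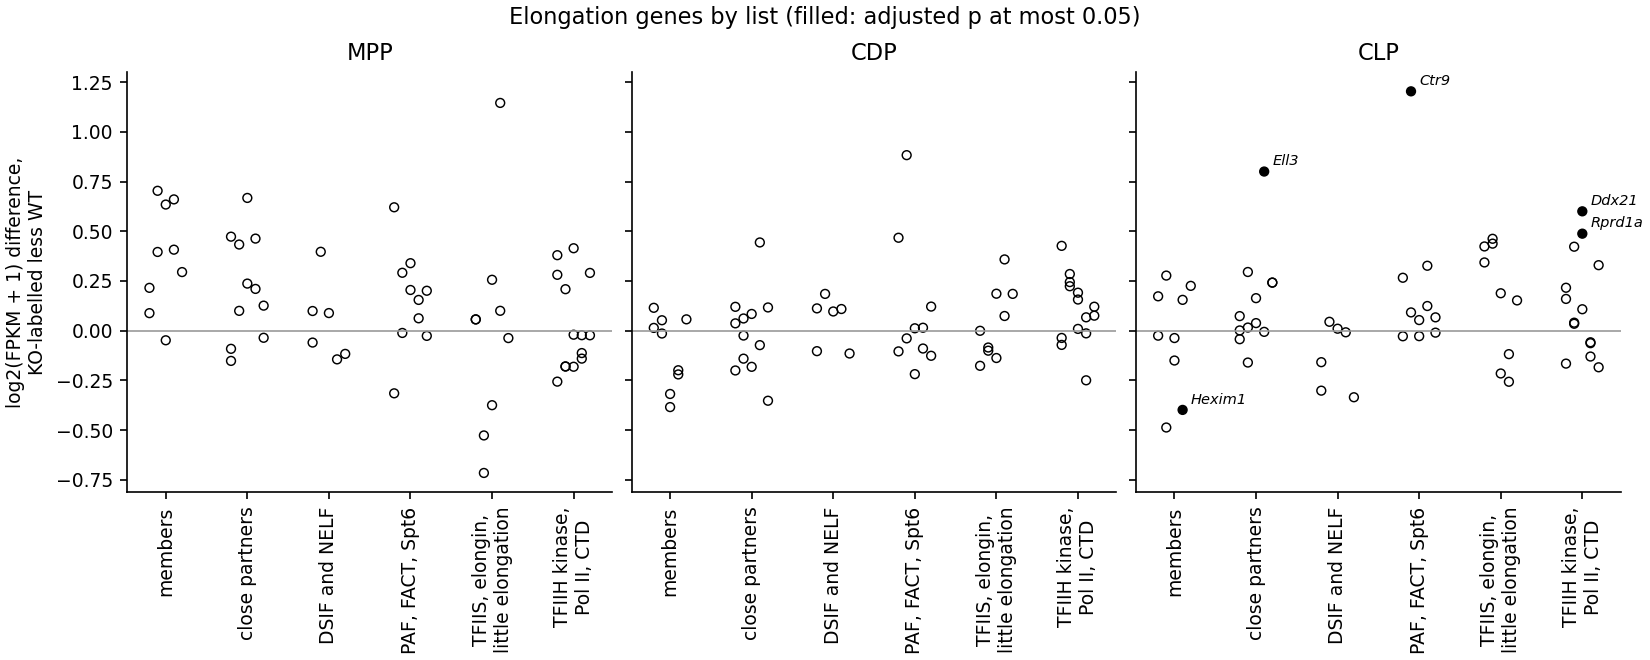
Difference between KO-labelled and WT libraries of the members and of the 53 other elongation genes by list, on the log2(FPKM + 1) scale, with 1 point per gene tested, filled where the adjusted p was at most 0.05. The filled points are all in CLPs: Hexim1 below 0, and Ctr9, Ell3, Ddx21 and Rprd1a above it.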

How the data were processed

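FPKM values per gene were deposited as 3 tables, 1 for each population, with 6 libraries each. Per the study's methods and processing notes, the authors filtered the reads with SOAPnuke, aligned them to mm10 with Bowtie2 2.2.5 and HISAT2 2.0.4, and estimated gene levels with RSEM 1.2.12, library by library. Differences were fitted to log2(FPKM + 1) with limma 3.58.1 (R 4.3.3, trended empirical Bayes) after dropping genes whose mean FPKM was under 0.5, and p was adjusted over all genes tested by Benjamini-Hochberg at a threshold of 0.05. The pseudocount understates changes of low genes such as Ell2. FPKM carries no counts, so no counting interval was given, and depth was estimated from the steps between the low values of 799 to 949 genes a library. Samples were grouped by their labels, and nothing there gives a batch. The design text calls the repeats biological. No 2 of the 18 libraries were identical.

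Same-numbered WT and KO-labelled libraries deviated together in CDPs (r = 0.44, 0.67 and 0.79) and CLPs (0.40, 0.33 and 0.13). On the data alone, the number was used there as a pairing term in an alternative fit. The values do not settle that it pairs libraries. WT CLP number 3 was closer to KO-labelled number 2 (0.23), and WT CDP number 2 was nearly as close to KO-labelled number 1 (0.66). The members and gene lists were chosen with earlier results of these data known. Named beyond the members were Trim33, the close partners (1 is not reported here), up to 5 passing genes per comparison from the other lists and the 3 genes most like Cdk9 and Hexim1. The fit was tested on simulated data. Alternatives varied the pseudocount, filter, scaling, prior and libraries.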

Additional observations from a re-analysis of the deposited data

How the results depend on the processing

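Adding 0.1 in place of 1, dropping the filter or raising it to 5 FPKM (which leaves no value for genes under it, such as Ell2), converting to TPM, median ratio scaling, quantile normalization, an untrended prior, a replicate block, a minimum log2 change of 1 and leaving out each library were tried, and leaving out both libraries numbered 3 was added after seeing the data. Of the counts of calls, 186 stayed within 1.5 times and 44 did not. Of the single differences, 857 kept direction and call, 28 gained the call, 38 lost it and 53 turned direction. What caused each change was not tested, beyond the fewer samples or genes that an alternative holds.

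For members between genotypes, 6 were called in MPPs without both libraries numbered 3, and 0 in CLPs with the minimum change or without both libraries numbered 3. For the other elongation genes the count was 24 in MPPs without both numbered 3, 3 in CDPs with the replicate block, and in CLPs 2 with no filter, 2 with TPM, 9 with the replicate block, 1 with the minimum change and 1 without both numbered 3. In WT libraries 1 member was called for CDPs less MPPs with median ratio scaling, 0 for CLPs less MPPs with TPM, median ratio scaling or the minimum change, and 0 for CDPs less CLPs with the minimum change. In MPPs same-numbered libraries correlated at r = 0.04, 0.48 and 0.47, which does not settle a pairing either. With the replicate block 0 members were called there, with 33 genes higher and 264 lower in place of 39 and 436. Between KO-labelled CDPs and MPPs, same-numbered libraries correlated at r = 0.33, 0.56 and 0.73. MPP number 1 was closer to CDP number 2 (0.46), and MPP number 2 to CDP number 1 (0.59), so a pairing is not settled there. For these the block called 19 genes higher and 77 lower in place of 39 and 137, and 0 members. Numbers did not pair CLPs with the other populations. There the replicate block called 1 member, Ell2, in KO-labelled libraries for CLPs less MPPs (adjusted p = 0.0255) and 1, again Ell2, for CDPs less CLPs (0.0463). In the interaction it called 1077 genes in place of 304, and 0 members (Hexim1 at 0.0643). Beyond these and the CDP and CLP values given above, the block changed no call of a member.

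On leaving out 1 library, members called between genotypes ranged from 0 to 6 in MPPs (6 without KO number 3), stayed at 0 in CDPs and ranged from 0 to 2 in CLPs (2 without WT number 1). The other genes ranged from 0 to 25 in MPPs, stayed at 0 in CDPs and ranged from 2 to 11 in CLPs. In WT libraries the range was 0 to 6 for CDPs less MPPs, 0 to 4 for CLPs less MPPs and 0 to 5 for CDPs less CLPs, the highest each time without CDP number 3. In KO-labelled libraries it was 0 to 3 for CLPs less MPPs (3 without MPP number 3), 0 to 2 for CDPs less CLPs (2 without CDP number 3) and 0 for CDPs less MPPs, and for the interaction 0.

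Differences that turned direction were not called, though on leaving out 1 library some were not small, as the 0.46 of Ccnt1 in CDPs. In MPPs Ccnt2 was 0.0631 with median ratio scaling, 0.0881 with quantile normalization and 0.0447 without both numbered 3. In CDPs TPM gave -0.11 for Cdk9, -0.0661 for Larp7, -0.00216 for Ell and -0.0636 for Ell2, quantile normalization gave -0.00998 for Cdk9 and 0.0530 for Ccnt1, and median ratio scaling 0.0308 for Ccnt1. In CLPs Cdk9 was 0.0312 with quantile normalization and Aff4 -0.0530 without both numbered 3. In WT libraries Ell2 for CDPs less MPPs was 0.0241 with median ratio scaling and 0.17 with quantile normalization, and for CDPs less CLPs Ccnt2 was 0.0162 with median ratio scaling, and Ell -0.0957 and Aff1 -0.0693 with TPM. On leaving out 1 library, the MPP differences ranged from -0.19 to 0.0777 for Ccnt2 and -0.00348 to 1.02 for Ell2. The CDP differences ranged from -0.0564 to 0.10 for Cdk9, -0.60 to 0.46 for Ccnt1, -0.64 to 0.20 for Hexim1, -0.0143 to 0.11 for Larp7, -0.0669 to 0.33 for Ell, -0.29 to 0.57 for Ell2, -0.77 to 0.0852 for Aff1 and -0.74 to 0.28 for Aff4. The CLP differences ranged from -0.0600 to 0.00184 for Cdk9 and -0.17 to 0.16 for Ccnt2. In WT libraries they ranged from -0.32 to 0.0378 for Ell and -0.46 to 0.13 for Ell2 for CDPs less MPPs, and for CDPs less CLPs from -0.21 to 0.11 for Ccnt2, -0.17 to 0.19 for Ell and -0.26 to 0.49 for Aff1.

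Median ratio scaling moved the median of all genes from -0.11 to -0.01 between MPP genotypes, from -0.10 to 0.01 for WT CDPs less MPPs and from -0.14 to -0.03 for KO-labelled CDPs less CLPs. The share of called genes that were higher moved from 23.4% to 37.0% for WT CDPs less MPPs, from 25.0% to 37.5% for WT CDPs less CLPs and from 32.6% to 48.3% for KO-labelled CDPs less CLPs. With 3 libraries a group, number 3 was apart from the others in KO-labelled MPPs and in CDPs. A change of Ccnt1, Aff1 or Aff4 between genotypes in MPPs or CDPs would have had to be large to be called. The 95% interval of Ccnt1 in CDPs ran from 0.361-fold to 2.72-fold.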
